A study of Mus musculus with 6 samples.

Results

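The genes described here encode receptors and junction proteins of blood endothelium, the cell layer that lines blood vessels. They were listed by name: Pecam1, Cdh5, Cldn5, Tek, Tie1, Kdr, Flt1, Eng, Robo4 and Emcn. The rule uses no measured value, but earlier results of these data were known when it was set. Of these 10 genes, 8 had a probe with their symbol, 1 probe each, among 37036 genes tested. No probe carried the symbol Kdr or Eng here, so no expression value is given for either. The tissue was the mesenteric lymph node of adult mice, profiled on 6 Agilent arrays with 2 colours. The TB-TNF KO double group, named for loss of TNF in both T and B cells, had 3 arrays. The B-TNF KO group, named for its loss in B cells, also had 3. By these names both groups share the B cell deletion, and no wild-type sample was analysed here. Both were naive by their titles, the labels give the modification as a gene knock-out, and the driver of each deletion is not given in the sources used here. Each sample was RNA from the nodes of 3 mice pooled before extraction and labelled with Cy3. Every array also carried the same Cy5-labelled pool of RNA from mouse cell lines as reference. One TB-TNF KO double pool was labelled female and the other 5 pools male.

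Endothelial cells are held together by adherens junctions built on VE-cadherin (Cdh5), by tight junctions that contain claudin-5 (Cldn5), and by homophilic contacts of PECAM-1 (Pecam1). VEGF acts through the receptor tyrosine kinases encoded by Flt1 and Kdr, and angiopoietins act through Tek, with Tie1 as its partner receptor. In lymph nodes, blood vessels bring in lymphocytes, and TNF is known to act on endothelium, where it raises adhesion molecules and loosens junctions.

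Some arrays stood apart. Arrays 1 and 2 of TB-TNF KO double were hard to tell apart: the SD of their sample-channel differences was 0.952 times that of the reference channel, which holds the same RNA throughout, against 1.05 to 1.59 times for the 14 other pairs of arrays. They differed by less than the technical noise and were counted as 1 sample, so n is 2 for TB-TNF KO double and 3 for B-TNF KO. These arrays had almost no Y-linked signal, although array 1 was labelled male: the median log2 ratio of 3 Y-linked genes was -2.06 and -1.95 on them, against 0.05 to 1.61 on the 4 others. Exocrine pancreas transcripts were high on arrays 1 and 2 of both groups and near 0 on array 3 of both. The median sample intensity was 144 to 166 in TB-TNF KO double and 159 to 203 in B-TNF KO. The median reference intensity was 315 to 362 in TB-TNF KO double and 280 to 283 in B-TNF KO. The array images were extracted by the scanner software on 1 day for each group, so that day and group cannot be told apart. The design text calls each pool an independent sample.

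The 8 genes were first compared with the reference RNA, as a check of what they mark. Values are log2 of sample over reference, and a percentile gives the place of a gene's mean ratio among all genes tested. Cldn5 (percentile 99.5) and Robo4 (percentile 99.4) were among the genes with the highest ratios. Pecam1, Emcn, Tie1 and Tek lay between percentiles 95.4 and 97.8. Cdh5, which encodes the cadherin of endothelial junctions, lay at percentile 75.2 with a mean log2 ratio of 0.16, and the VEGF receptor gene Flt1 at percentile 17.4 with -0.24. For Flt1 the reference channel was bright, with 2494 to 2564 intensity units on TB-TNF KO double arrays and 2365 to 2448 on B-TNF KO arrays. For 6 of the 8 genes the label of an endothelial marker thus went with a high ratio in the node, and for Cdh5 and Flt1 it did not. All 48 spots of the 8 genes were well above background in the sample channel, as were 95.9% to 99.6% of all spots on each array. Of the 48, 0 were saturated.

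Each value rests on a single probe of 60 bases. The probes of Pecam1, Emcn and Tie1, printed 5′ to 3′ as deposited, are shown as the sequences these readings depend on; each can be read without a stop codon in at least 1 forward frame. In RefSeq (GRCm38.p6) the genes lie at chr11:106654213-106715281, chr3:137341062-137431069 and chr4:118471191-118489849, in that order.
Pecam1: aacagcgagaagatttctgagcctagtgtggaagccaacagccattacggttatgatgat
Emcn: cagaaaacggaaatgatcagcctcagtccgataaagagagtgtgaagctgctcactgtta
Tie1: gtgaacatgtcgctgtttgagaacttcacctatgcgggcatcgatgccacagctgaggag

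In all, 0 of the 8 genes passed the threshold in limma (adjusted p under 0.05 over all 37036 genes), where 0.0135% of all genes were called lower and 0% higher. Fitted by probe, 0 of their 8 probes were called, against 0.0147% of all probes called lower. At an unadjusted p under 0.05 in limma, 4 of the 8 had lower values and 0 higher, against 11.3% lower and 5.04% higher of all genes. The difference, TB-TNF KO double minus B-TNF KO, was negative for all 8 genes, against 55% of all genes, and lay between -0.39 and -0.01 on the log2 scale. Its median was -0.25, against -0.01 over all genes tested. For 4 of the 8, Cldn5, Tek, Robo4 and Emcn, every TB-TNF KO double array lay below every B-TNF KO array, against 17.2% of all genes; for 0 of the 8 did they lie above, against 10.7%. The groups overlapped for Pecam1, Cdh5, Tie1 and Flt1. In the sample channel alone, 6 of the 8 differences were negative, against 50.4% of all genes. There 0 of the 8 passed in limma, against 0.772% of all genes called lower and 0.683% higher. With 0 of the 8 past the threshold, a decrease was not established. In whole nodes, a lower value would not tell fewer endothelial cells from less RNA per cell.

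**Figure D1:**
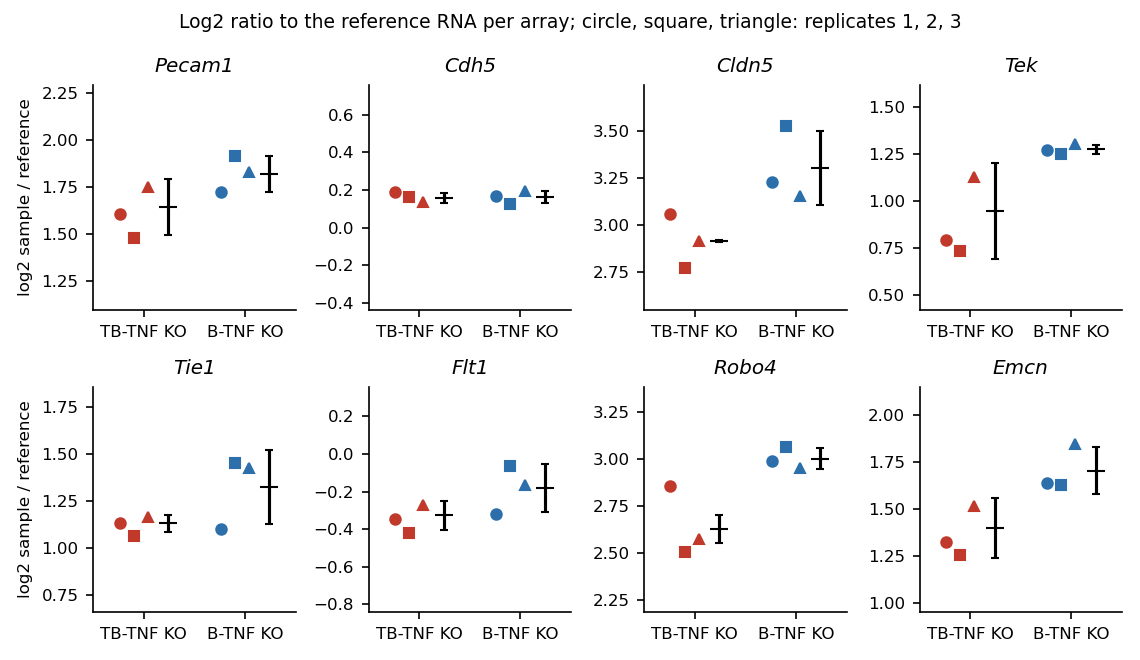
Log2 ratio of sample over reference on each array for the 8 genes, TB-TNF KO double (red) left of B-TNF KO (blue); the vertical axes all span the same distance. Bars give mean and SD over samples, with TB-TNF KO double arrays 1 and 2 averaged (n = 2 and n = 3). The groups do not overlap for Cldn5, Tek, Robo4 and Emcn, and Cdh5 is nearly level across all 6 arrays.

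The junction genes differed among themselves. Cldn5 had log2 ratios of 3.05, 2.77 and 2.92 in TB-TNF KO double, against 3.23, 3.52 and 3.15 in B-TNF KO. All TB-TNF KO double arrays were below all B-TNF KO arrays. Means were 2.91 ± 0.0033 (SD, n = 2) in TB-TNF KO double and 3.30 ± 0.20 (SD, n = 3) in B-TNF KO, a difference of -0.39 (SE 0.11) that did not pass in limma (adjusted p = 0.16). The small SD of TB-TNF KO double arises from averaging arrays 1 and 2, which lay on either side of array 3. For this probe the reference channel, although the same RNA on every array, also differed. Before normalisation it read 424, 490 and 429 intensity units on TB-TNF KO double arrays, against 267, 339 and 386 on B-TNF KO arrays. Quantile normalised, the reference channel differed by 0.20 (SE 0.14). The sample channel alone, quantile normalised between arrays, gave a difference of 0.04 (SE 0.15) for Cldn5, with groups that overlapped. The lower ratio of Cldn5 was therefore not seen in the node RNA channel on its own.

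Pecam1, which encodes an adhesion molecule of endothelial contacts that platelets and leukocytes also carry, had log2 ratios of 1.61, 1.48 and 1.75 in TB-TNF KO double, against 1.72, 1.91 and 1.83 in B-TNF KO. Array 3 of TB-TNF KO double lay within the range of B-TNF KO. Its difference was -0.18 (SE 0.08, adjusted p = 0.38 in limma), with a 95% interval of -0.38 to 0.03. Cdh5 had log2 ratios of 0.19, 0.16 and 0.14 in TB-TNF KO double, against 0.17, 0.13 and 0.19 in B-TNF KO. The 6 arrays spanned only 0.07, the smallest span of the 8 genes. The Cdh5 difference was -0.01 (SE 0.04, adjusted p = 0.97 in limma). For this probe the 95% interval of -0.12 to 0.10 leaves out a difference as large as that of Robo4. The probe read 178 to 256 sample intensity units, and its ratio was at percentile 75.2. How well it reports Cdh5 was not tested. The platelet markers gave no common shift beside Pecam1. Their median difference over 9 genes was 0.0036, with 4 negative and 5 positive, and 0 passed in limma. Their summed sample intensity, before normalisation, was 4254 to 4451 units in TB-TNF KO double and 5079 to 5944 in B-TNF KO. The sample channel as a whole was also dimmer in TB-TNF KO double.

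Among the receptors, Robo4 came nearest to the threshold. It encodes a Roundabout family receptor that is largely restricted to endothelium and known for stabilising vessels. Its log2 ratios were 2.86, 2.50 and 2.57 in TB-TNF KO double, against 2.99, 3.06 and 2.95 in B-TNF KO. Array 1 of TB-TNF KO double was the closest to the other group, and no value overlapped. Means were 2.63 ± 0.08 (SD, n = 2) in TB-TNF KO double and 3.00 ± 0.06 (SD, n = 3) in B-TNF KO. The ratio was 1.30-fold lower, with a difference of -0.38 (SE 0.06), a 95% interval of -0.52 to -0.23 and an adjusted p of 0.058 in limma. In the sample channel alone the Robo4 difference was -0.17 (SE 0.09, adjusted p = 0.30), again without overlap, as for 17.3% of all genes. Background-subtracted sample intensities of Robo4, before normalisation, were 1726, 1574 and 1804 in TB-TNF KO double, against 2495, 2461 and 2952 in B-TNF KO. Part of that gap is the dimmer sample channel of TB-TNF KO double. Its median over all spots was 144 to 166, against 159 to 203 in B-TNF KO.

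Tek, which encodes the angiopoietin receptor TIE2, had log2 ratios of 0.79, 0.74 and 1.13 in TB-TNF KO double, against 1.27, 1.25 and 1.30 in B-TNF KO. The B-TNF KO arrays were nearly level, and arrays 1 and 2 of TB-TNF KO double were lower than its array 3. Means were 0.94 ± 0.26 (SD, n = 2) in TB-TNF KO double and 1.27 ± 0.03 (SD, n = 3) in B-TNF KO, with a difference of -0.33 (SE 0.10, adjusted p = 0.20 in limma). The difference was -0.15 without TB-TNF KO double arrays 1 and 2, and -0.11 without background subtraction. The Tek probe was dim. Before normalisation it read 55.1, 55.3 and 75.9 sample intensity units in TB-TNF KO double and 100.5, 83.2 and 114 in B-TNF KO. Tie1, the orphan partner of TIE2, had log2 ratios of 1.13, 1.06 and 1.16 in TB-TNF KO double, against 1.10, 1.45 and 1.43 in B-TNF KO. Array 1 of B-TNF KO lay within the TB-TNF KO double range. The Tie1 difference was -0.19 (SE 0.11, adjusted p = 0.47 in limma), with a 95% interval of -0.47 to 0.08. This probe was dim too, with 89.0, 78.6 and 82.7 sample intensity units in TB-TNF KO double and 92.0, 106 and 147 in B-TNF KO. The difference of Tie1 was -0.07 without background subtraction and -0.07 with median centring. The VEGF receptor gene Flt1 had log2 ratios of -0.35, -0.42 and -0.27 in TB-TNF KO double, against -0.32, -0.07 and -0.16 in B-TNF KO, and the groups overlapped. Its difference was -0.14 (SE 0.08, adjusted p = 0.47 in limma).

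Emcn encodes endomucin, a sialomucin of capillary and venous endothelium that is known to hinder leukocyte adhesion. Its log2 ratios were 1.32, 1.25 and 1.51 in TB-TNF KO double, against 1.64, 1.63 and 1.85 in B-TNF KO. In both groups array 3 was the highest, and the groups did not overlap. Means were 1.40 ± 0.16 (SD, n = 2) in TB-TNF KO double and 1.70 ± 0.12 (SD, n = 3) in B-TNF KO, with a difference of -0.30 (SE 0.10, adjusted p = 0.20 in limma). Emcn kept its size in the sample channel alone, at -0.30 (SE 0.07, adjusted p = 0.072), while the reference channel differed by -0.08 (SE 0.04). Without TB-TNF KO double arrays 1 and 2 the Emcn difference was -0.19.

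**Figure D2:**
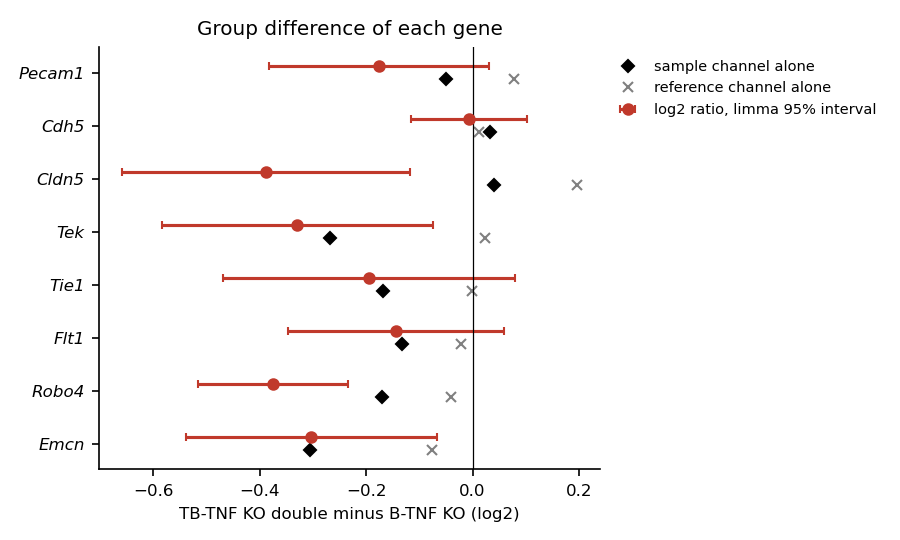
Difference between TB-TNF KO double and B-TNF KO (log2) for each gene, as the log2 ratio with limma's 95% interval (red), the sample channel alone (black) and the reference channel alone (grey). Emcn is at -0.30 in both the ratio and the sample channel, whereas Cldn5 is at -0.39 in the ratio and 0.04 in the sample channel.

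With the 6 arrays counted separately and the replicate number as a block, 2 of the 8 genes passed in limma, Emcn at -0.34 (adjusted p = 0.014) and Tek at -0.39 (adjusted p = 0.039), both lower. In that fit 6.48% of all genes were called lower and 1.85% higher, and it takes TB-TNF KO double arrays 1 and 2 as separate samples. With the 6 arrays counted separately and no block, 0 of the 8 passed, against 4.67% of all genes called lower and 1.46% higher. Robo4 stayed just outside the threshold in both, with adjusted p = 0.063 with the block and 0.067 without it.

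Across 22 processing settings, which are the alternatives other than the reference channel alone, the differences of Emcn, Tek, Robo4, Tie1, Flt1 and Pecam1 were negative in all 22. The difference of Cldn5 was negative in 21, the sample channel alone being the exception, and that of Cdh5 in 13. Some settings could not change a difference, as each gene has a single probe that passes every filter. Dropping or tightening the filter on dim probes, leaving out saturated probes and averaging all probes returned the reported differences. So did the trended robust spread, which alters only the spread. The fits of arrays counted separately, with and without the block, also share their differences. The counts of 22, 21 and 13 thus include repeated values. Robo4 lay between -0.46 and -0.17, Emcn between -0.42 and -0.16, and Tek between -0.51 and -0.11. The median of the 8 genes was -0.15 with the sample channel alone, -0.11 without background subtraction and -0.16 without TB-TNF KO double arrays 1 and 2.

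**Figure D3:**
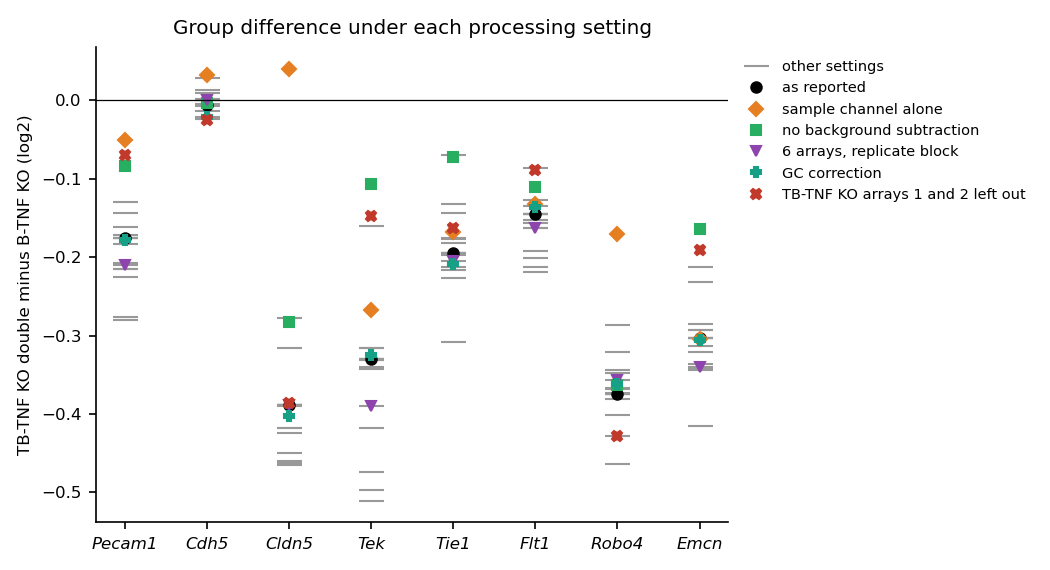
Difference between TB-TNF KO double and B-TNF KO (log2) for each gene as reported and under the 22 processing settings, the reference channel alone left out. Grey dashes are settings not named in the legend; Robo4 ranges from -0.46 to -0.17, and Cdh5 stays between -0.03 and 0.03.

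Group differences over all genes followed the GC content of the probe. Of genes with probes of up to 35% GC, 23.1% had lower values at an unadjusted p under 0.05 in limma, against 2.97% above 55% GC. The 8 probes had 38.3% GC (Robo4) to 55% GC (Cldn5 and Cdh5). With log ratios corrected for GC in each array, Robo4 was at -0.36, Cldn5 at -0.40, Tek at -0.33 and Emcn at -0.31, and the median of the 8 genes was -0.26.

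The other genes of these pathways were taken from lists chosen by known function. None of their members passed in limma over all genes. Of 34 further blood endothelial genes measured, 27 had negative and 7 positive differences, with a median of -0.10 in the log ratio and -0.15 in the sample channel alone. At an unadjusted p under 0.05 in limma, 12 of the 34 had lower values and 1 higher, against 11.3% and 5.04% of all genes. For 11 of the 34 every TB-TNF KO double array lay below every B-TNF KO array, against 17.2% of all genes. Mmrn2, which encodes the endothelial matrix protein multimerin-2, had log2 ratios of 4.62, 4.39 and 3.98 in TB-TNF KO double, against 4.77, 4.82 and 4.96 in B-TNF KO. Its difference was -0.61 (SE 0.15, adjusted p = 0.13 in limma). The sphingosine-1-phosphate receptor gene S1pr1, which lymphocytes also express, had log2 ratios of 2.62, 2.65 and 2.97 in TB-TNF KO double, against 3.28, 3.09 and 3.11 in B-TNF KO, a difference of -0.36 (SE 0.11, adjusted p = 0.19 in limma). For both genes the groups did not overlap. Without TB-TNF KO double arrays 1 and 2 the median of the 34 genes was -0.05.

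The 11 measured junction partners had a median difference of -0.07, with 7 negative and 4 positive. Tjp1, encoding the tight junction scaffold ZO-1, differed by -0.25 (adjusted p = 0.14 in limma), and Esam, encoding an endothelial adhesion molecule, by 0.12 (adjusted p = 0.26). Of 20 listed ligands and co-receptors of the VEGF, angiopoietin, Slit and BMP pathways, 15 were measured. Their median was 0.0035, with 7 negative and 8 positive. Vegfa, Angpt1, Ptprb, Slit3 and Unc5b had no value here, so the list says nothing of these ligands and receptors. Tgfbr2, a TGF-beta receptor gene, differed by -0.26 (adjusted p = 0.14 in limma) and Acvrl1, the endothelial BMP9 receptor gene ALK1, by -0.13 (adjusted p = 0.33). Of the 21 downstream signalling genes, 13 had negative and 8 positive differences. Ptpn11, encoding the phosphatase SHP2, was at 0.37 (adjusted p = 0.12 in limma) and the adaptor gene Shc1 at -0.24 (adjusted p = 0.26). With the 6 arrays counted separately and the replicate block, 3 other blood endothelial genes, 2 downstream signalling genes, 1 ligand or co-receptor gene and 0 junction partners passed in limma in either direction. With 6.48% of all genes called lower and 1.85% higher in that fit, these counts are near the share over all genes.

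**Figure D4:**
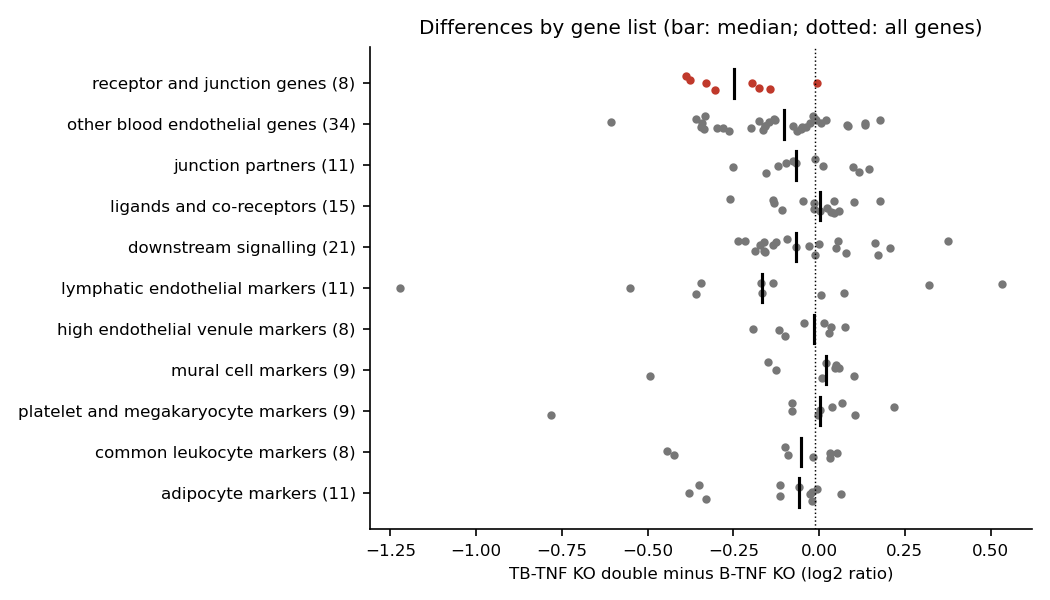
Difference between TB-TNF KO double and B-TNF KO (log2 ratio) for every measured gene of each list, with the number measured in brackets. The median of the 8 receptor and junction genes is -0.25 and that of the 34 other blood endothelial genes -0.10, while those of ligands, high endothelial venule, mural and platelet genes lie within 0.03 of 0.

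Markers of neighbouring cells were read on the same scale. The 8 measured high endothelial venule markers had a median difference of -0.01, with 4 negative and 4 positive, and the 9 mural cell markers a median of 0.02. The 11 lymphatic endothelial markers had a median of -0.17, with 7 negative and 4 positive, and a median of -0.08 in the sample channel alone. Without overlap 5 were lower and 2 higher, against 17.2% and 10.7% of all genes. The 2 were Ccl21a (0.53) and Itga9 (0.32). In limma 1 gene of the list was called lower, against 0.0135% of all genes. It was Lyve1, which encodes a hyaluronan receptor of lymphatic endothelium, with a difference of -1.22 (adjusted p = 0.0081 in limma). In the sample channel alone its difference was -0.41. Before normalisation its reference channel read 612 to 698 intensity units in TB-TNF KO double and 350 to 409 in B-TNF KO. The 9 myeloid markers had a median difference of -0.02, with 6 negative and 3 positive, from -0.41 (Adgre1) to 0.48 (S100a8). Their median log2 ratio was 1.11, 0.99 and 0.95 in TB-TNF KO double and 1.35, 1.31 and 1.31 in B-TNF KO. By group means the middle gene was Ly6c1 (0.98) in TB-TNF KO double and Adgre1 (1.32) in B-TNF KO, so these medians rest on different genes. Common leukocyte markers had a median difference of -0.05 over 8 genes. Their median log2 ratio was 1.66, 1.55 and 1.90 in TB-TNF KO double and 1.99, 1.98 and 2.10 in B-TNF KO, so the groups did not overlap. Adipocyte markers had a median log2 ratio of 0.95, 0.88 and 2.18 in TB-TNF KO double and 1.99, 1.87 and 1.72 in B-TNF KO. Arrays 1 and 2 of TB-TNF KO double were thus low for adipocyte genes as well as for Tek and Emcn. Exocrine pancreas markers were at 4.42, 4.44 and 0.0039 in TB-TNF KO double and 3.56, 4.16 and 0.0021 in B-TNF KO, and so did not separate the groups. The part of these cells in the values of the 8 genes was not tested.

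Over the 6 arrays the median of the 8 genes, each centred on its own mean, was -0.09, -0.26 and -0.02 in TB-TNF KO double and 0.05, 0.20 and 0.12 in B-TNF KO. Pecam1 ran closest to that median, with a root mean square distance of 0.03, and Cdh5 farthest, at 0.15. Among 1698 other genes with a symbol that varied at least as much, the 5 nearest were Rtl6, Tlr7, Vpreb3, Lck and Gimap1, at distances of 0.02 to 0.04. Lck, encoding the T cell receptor kinase, and Vpreb3, a B lineage gene, are known from lymphocytes. The 5 were picked for this likeness, and their differences of -0.27 to -0.22 are a description.

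**Figure D5:**
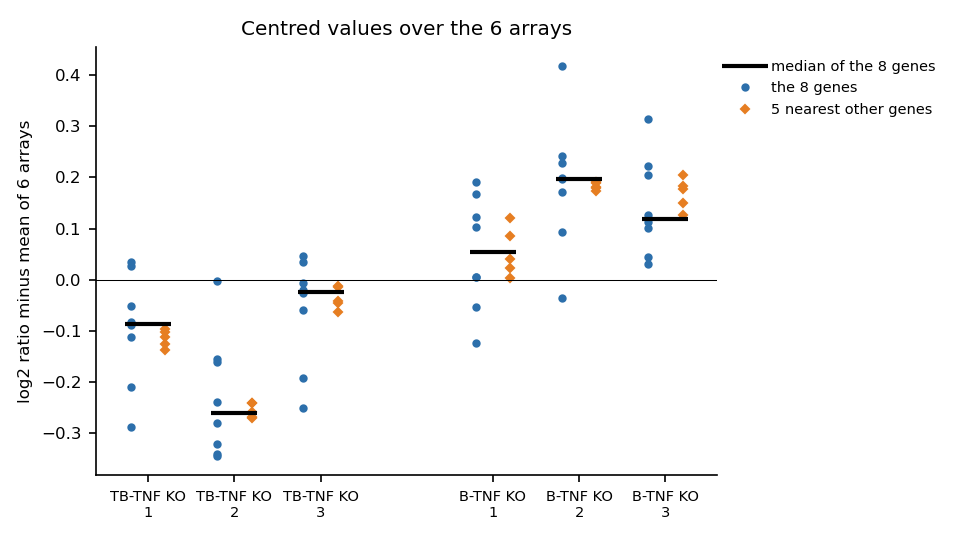
Log2 ratio of each gene minus its mean over the 6 arrays, for the 8 endothelial genes (blue), their median (black bar) and the 5 genes nearest to it (orange). The median lies below 0 on the 3 TB-TNF KO double arrays and above 0 on the 3 B-TNF KO arrays.

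ETS family factors, which recognise GGAA, are known regulators of endothelial genes, and these letters were counted in the RefSeq promoter windows (GRCm38.p6). A window runs from 250 bases before to 50 after a transcript start that RefSeq lists. For Robo4, Emcn and Tek the outermost start of the gene lies before the start used and still within the window. More than the last 50 bases, and for Tek most of the window, is thus inside the gene. The Flt1 window lies wholly inside the gene. The windows of Emcn and Cldn5 are shown as the highest and lowest counts among the 4 genes whose groups did not overlap. They lie at chr3:137340828-137341127 and chr16:18776597-18776896, in that order, and are printed 5′ to 3′ on the plus strand, which is the strand of both genes. Capitals mark GGAA or its reverse complement TTCC.
Emcn: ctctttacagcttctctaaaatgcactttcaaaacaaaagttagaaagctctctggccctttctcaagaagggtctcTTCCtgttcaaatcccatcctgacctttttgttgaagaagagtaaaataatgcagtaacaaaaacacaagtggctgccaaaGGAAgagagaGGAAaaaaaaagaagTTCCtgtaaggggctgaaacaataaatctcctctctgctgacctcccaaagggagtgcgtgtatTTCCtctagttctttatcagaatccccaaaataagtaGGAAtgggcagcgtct
Cldn5: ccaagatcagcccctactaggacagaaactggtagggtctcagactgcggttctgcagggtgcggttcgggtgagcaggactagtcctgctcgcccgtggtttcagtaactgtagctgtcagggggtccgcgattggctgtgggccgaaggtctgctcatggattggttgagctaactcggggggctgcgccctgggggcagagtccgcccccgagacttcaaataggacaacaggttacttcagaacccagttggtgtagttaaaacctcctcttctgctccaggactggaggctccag
The letters occurred 6 times in Emcn, 0 times in Cldn5, 4 times in Robo4 and 2 times in Tek. Of all 32851 RefSeq promoter windows of this length, 95.98% held at least 1 occurrence, with a median of 3. No window carried the symbol Pecam1 or Cdh5. The Tie1 window held 9, a number reached by 1.586% of all windows, and those of Flt1, Kdr and Eng held 4, 5 and 4. The 4 genes thus did not share a number of these letters, and a match is a description of sequence only.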

How the data were processed

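Scanned images were quantified by the authors in Agilent Feature Extraction A.7.5.1, per the file headers. The deposited scanner files hold intensity values of each spot and its local background, with a log10 ratio that has the reference on top. The authors' deposited table of the series is on a log10 scale and followed the processed sample signal (r across probes 0.993 to 0.996), with column medians of 2.98 to 2.99; its scaling is unknown.

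Intensities were corrected with normexp (offset 50) and normalised by loess within arrays with limma 3.58.1 under R 4.3.3. Outlier spots (228) were left out, as were control spots, which had no weight in the loess. Probes well above background in the sample channel on at least 3 arrays were kept (40792 of 41006). Symbols came from a RefSeq table (GRCm38.p6) for 15318 of 41034 spots, and other spots kept the file's name. A gene was represented by its probe with the highest mean sample signal. Groups were compared with lmFit and eBayes, with Benjamini-Hochberg adjustment over all genes. The script was tested on simulated data. The 8 genes, the lists and the averaging of TB-TNF KO double arrays 1 and 2 were chosen with earlier results of these data known. The genes named from each list were those past the threshold or otherwise the 2 with the largest difference without overlap, and the 5 nearest genes were taken by distance.

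Arrays with the same replicate number deviated together (correlation of deviations from group means 0.14, 0.52 and 0.62), so the number was also fitted as a block. The labels give the number and no more, and array 1 of TB-TNF KO double correlated more with array 2 of B-TNF KO (0.41) than with array 1. Sequences are from the scanner files and RefSeq. Figures used matplotlib 3.10.9.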

Additional observations from a re-analysis of the deposited data

How the results depend on the processing

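Alternatives named as added were chosen after the data were seen. Against 5 genes lower and 0 higher as reported, limma called 1728 lower and 539 higher with the 6 arrays counted separately, and 2399 and 685 with the replicate block added. It called 286 and 253 with the sample channel alone, 149 and 57 with saturated probes left out, 364 and 124 with a trended robust spread, and 321 and 103 with array weights. The count of lower genes was 0 without background subtraction, 1 with the scanner software's processed signals, 0 with the authors' series table and 2 with the mean of all probes. Leaving out each replicate gave 0 to 4 lower genes, with 0 without TB-TNF KO double replicate 3, B-TNF KO replicate 2 or B-TNF KO replicate 3. Leaving out TB-TNF KO double replicate 3 leaves its averaged arrays 1 and 2 as 1 sample, assumed to vary like the other group. In the added alternatives it was 0 without TB-TNF KO double arrays 1 and 2, 0 without the replicate 3 pools of both groups and 0 in the reference channel alone; leaving out those arrays or pools also leaves 1 TB-TNF KO double sample.

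Of the 8 endothelial genes 0 passed under each setting except the replicate block with 6 arrays, where 2 passed, by gene and by probe. The block changed no other call of the 8. Their median of -0.25 was -0.11 without background subtraction, -0.15 with the sample channel alone, -0.16 without TB-TNF KO double arrays 1 and 2, 0.0056 in the reference channel alone, and -0.32 to -0.20 with each replicate left out. The causes were not tested; leaving out arrays also leaves fewer samples in the fit. The number of arrays limits the precision. Without background subtraction the difference of Tek was -0.11, of Emcn -0.16 and of Tie1 -0.07.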
